A study of Mus musculus with 407 samples.

Results

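To describe the regulators of fibre type and muscle identity in ageing muscle, the RNA of 8 genes was followed across 4 muscles and 6 ages of mice. The genes are Six4, Eya1, Eya4, Tbx15, Sox6, Prox1, Pitx1 and Maf. They were chosen by symbol, are 8 of the 24458 gene symbols in the count tables, and each had a value in all 407 libraries. Total RNA of diaphragm, gastrocnemius, soleus and tibialis anterior was sequenced from male and female C57BL/6J mice at 6 months of age and at 12, 18, 21, 24 and 27. The labels name no engineered allele and no treatment, and they set the groups apart by muscle, sex and age. Each library came from 1 animal. There were 98 libraries of diaphragm, 104 of gastrocnemius, 103 of soleus and 102 of tibialis anterior, with 8 per muscle and sex at 6 months and 10 at 27 months. Tissues of mice of the same age were collected on the same day, so age and collection day cannot be told apart. Which muscles shared a mouse is not in the labels, and p-values measure the spread between libraries of a group.

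Skeletal muscle is a mosaic of slow fibres, which are rich in mitochondria and use slow myosin, and several kinds of fast fibre. Six4 and related homeoproteins bind the MEF3 site of muscle genes and work with Eya proteins, cofactors with phosphatase activity, to activate fast fibre genes. Tbx15 is a T-box factor known from glycolytic fibres, Maf is a large basic leucine zipper factor known to activate the gene of the fastest mouse myosin, and Sox6 is an HMG-box factor that represses slow fibre genes. Prox1 is a homeobox factor required for the slow fibre programme, and it also specifies lymphatic endothelium. Pitx1 is a homeobox factor that gives the hindlimb its identity. Soleus is the slow-rich muscle of the mouse hindlimb, gastrocnemius and tibialis anterior are mainly fast, and the diaphragm is a trunk muscle of mixed fibres.

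RefSeq promoter sequence on the GRCm38.p6 build was at hand for 4 of the 8 genes, and it is shown because these genes include both directions of the difference between fast and slow muscles. Each run holds the 250 bases before a start site, 5′ to 3′ on the minus strand on which all 4 genes lie. Capitals mark 3 motifs that were searched on both strands: TCAGGTT, the MEF3 site of Six4 and its relatives; CANNTG, the E-box of myogenic factors; and GGAAAA, the core of NFAT sites. Prox1 at chr1:190170828-190171077, Sox6 at chr7:116038745-116038994 and Eya4 at chr10:23349944-23350193 are given before their most upstream starts, and Six4 before both of its starts, at chr12:73113426-73113675 and chr12:73113246-73113495.
Prox1: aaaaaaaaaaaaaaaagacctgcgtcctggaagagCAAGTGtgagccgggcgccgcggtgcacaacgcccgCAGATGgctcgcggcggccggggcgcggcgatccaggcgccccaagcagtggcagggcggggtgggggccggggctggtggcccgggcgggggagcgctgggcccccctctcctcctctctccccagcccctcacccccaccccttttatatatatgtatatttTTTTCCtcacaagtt
Sox6: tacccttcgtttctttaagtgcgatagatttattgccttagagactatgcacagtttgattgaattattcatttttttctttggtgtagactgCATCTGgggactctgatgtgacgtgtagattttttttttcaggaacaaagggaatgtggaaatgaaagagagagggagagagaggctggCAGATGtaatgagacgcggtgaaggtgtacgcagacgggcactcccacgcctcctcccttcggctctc
Eya4: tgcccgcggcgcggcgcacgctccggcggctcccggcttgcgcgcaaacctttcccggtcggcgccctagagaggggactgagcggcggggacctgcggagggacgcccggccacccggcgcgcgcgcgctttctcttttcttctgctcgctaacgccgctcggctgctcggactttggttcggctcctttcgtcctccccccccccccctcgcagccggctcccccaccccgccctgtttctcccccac
Six4, upstream start: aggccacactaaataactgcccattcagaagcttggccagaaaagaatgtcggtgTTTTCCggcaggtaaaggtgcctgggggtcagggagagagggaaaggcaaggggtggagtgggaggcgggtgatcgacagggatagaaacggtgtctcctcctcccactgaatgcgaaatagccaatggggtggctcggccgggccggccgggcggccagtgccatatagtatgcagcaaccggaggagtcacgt
Six4, downstream start: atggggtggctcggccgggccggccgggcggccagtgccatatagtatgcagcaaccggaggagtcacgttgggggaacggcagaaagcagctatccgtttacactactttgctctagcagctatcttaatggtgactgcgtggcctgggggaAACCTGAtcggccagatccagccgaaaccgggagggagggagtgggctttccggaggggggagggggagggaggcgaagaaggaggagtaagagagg
The Prox1 window held 2 E-boxes, 215 and 179 bases before the start, and 1 NFAT match at 15 bases. The Sox6 window held 2 E-boxes, 157 and 68 bases before the start. The Eya4 window held none of the 3 motifs. Windows that are not shown held further matches. The window of the other Eya4 start had an E-box at 56 bases. Sox6 has 6 starts, and the windows of its other starts held more E-boxes and NFAT matches and a MEF3 match at 208 bases. Before its upstream start Six4 had 1 NFAT match at 195 bases, and before its downstream start it had 1 MEF3 match at 97 bases, read as AACCTGA on the opposite strand. Of all 32851 RefSeq promoter windows of this length, 3.49% held a MEF3 match, 66.2% an E-box and 20.4% an NFAT match, and a match is only a description of the letters.

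The 407 libraries held 38583802 to 300089909 gene counts each (median 72766895). Levels are counts per 1e6 of library size (CPM), with sizes adjusted by TMM factors (trimmed mean of M values). The scaling factors ran from 0.7076 to 2.178, with the largest in diaphragm. Marker genes matched the labelled muscles: the summed slow fibre markers (Myh7, Tnnt1, Tnni1, Myl2) had a median of 9090 CPM in soleus, 981 in diaphragm, 627 in gastrocnemius and 9.14 in tibialis anterior. The summed fibre markers Acta1, Ckm, Des and Ttn had a median of 73000 CPM in diaphragm and 174000 to 233000 CPM in the limb muscles, and the mesothelial markers 90.3 CPM in diaphragm and at most 0.368 CPM elsewhere. In bulk RNA, fewer cells of a type and less RNA per cell cannot be told apart. In 6 diaphragm libraries the correlation with the rest of their group over 12267 genes was 0.73 to 0.877, against 0.906 or more in all others. They are replicate 2 of both sexes at 6 months, male replicate 3 and female replicate 0 at 21 months, and male replicate 6 and female replicate 0 at 27 months. Annotated antisense genes overlap Eya1, Tbx15, Sox6, Prox1, Pitx1 and Maf. The libraries were strand-specific, but it is not stated whether counting used the strand, so reads of the antisense partners cannot be told apart. Liver transcripts summed to 29200 CPM in that male library of 21 months and 10700 CPM in that of 27 months, against at most 1960 CPM in the other libraries.

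The 4 muscles were compared at 6 months to ask where each regulator is expressed before old age. Prox1 RNA was 17.8 times higher in soleus than in tibialis anterior in males and 24.4 times higher in females. Eya4, Sox6, Maf and Tbx15 ran the other way and were 2.33 to 6.66 times lower in soleus than in tibialis anterior. Pitx1 was found in all 3 limb muscles and was at or near 0 in diaphragm, while Six4 and Eya1 varied least among muscles.

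Of 48 comparisons of a gene between a pair of muscles, 35 passed the test in males and 37 in females, and 33 passed in both sexes with the same direction. In males the genes that passed were 7 of 8 between diaphragm and gastrocnemius (66.7% of all genes tested), 5 between diaphragm and soleus (50.1%), 8 between diaphragm and tibialis anterior (66.9%), 7 between gastrocnemius and soleus (46.4%), 2 between gastrocnemius and tibialis anterior (12.6%) and 6 between soleus and tibialis anterior (46.2%). In females the counts for the same pairs were 8 (72.5%), 7 (57.3%), 8 (74.7%), 6 (51.0%), 2 (16.2%) and 6 (57.1%). Large shares of all genes differ between these muscles, so the sizes of the differences say more than the counts. The counts include the comparisons of Pitx1 with diaphragm, where it was at or near 0. Pitx1 passed the filter on low counts only through the limb muscles, so these comparisons add no support. Without the 6 libraries that stand apart, 39 passed in males and 37 in females. With TMM 10 of the male differences were positive and 25 negative, and 12 and 25 of the female ones. Plain total counts, with no TMM factor, gave 18 and 22 in males and 16 and 20 in females.

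**Figure D1:**
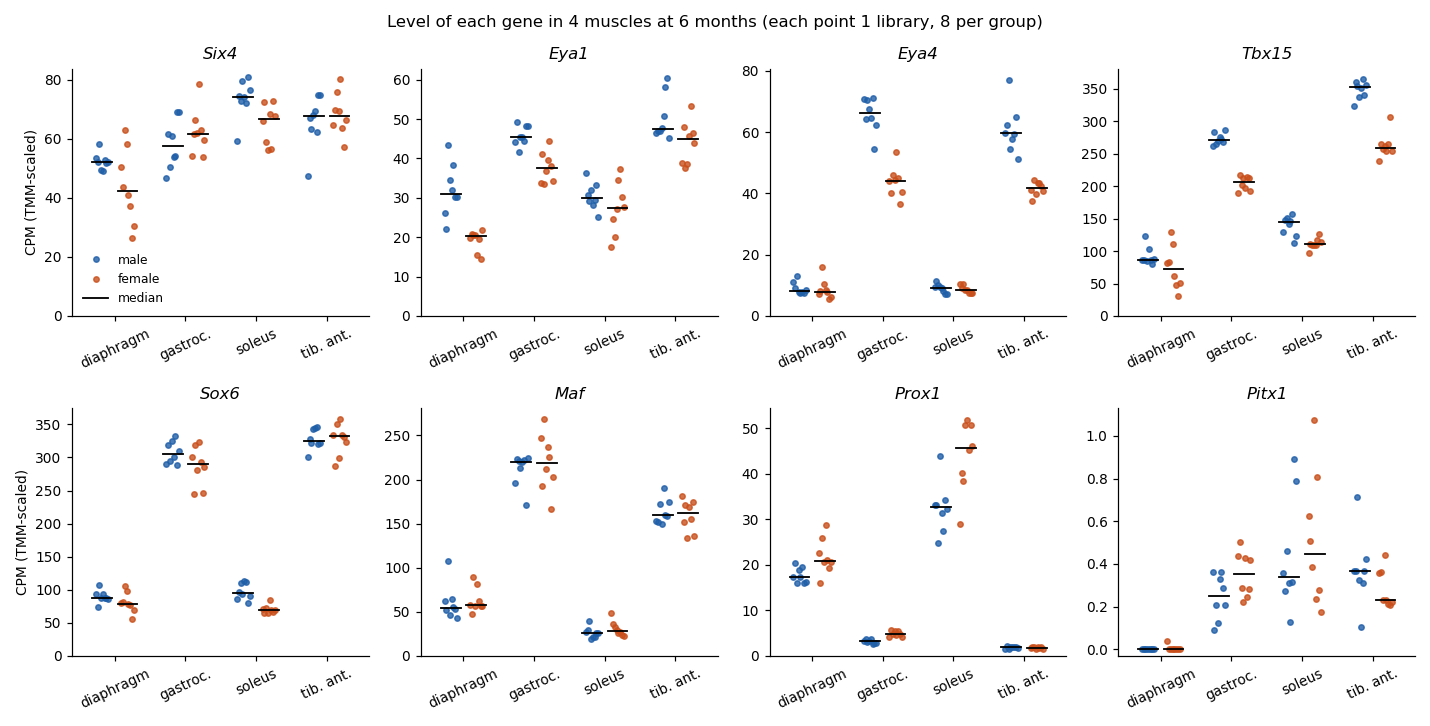
Level of each gene (TMM-scaled CPM, linear axes from 0) in the 4 muscles at 6 months. Each point is 1 library, 8 per group, blue for males and orange for females, and the bar is the median. Prox1 is highest in soleus with medians of 32.7 and 45.6 CPM, Eya4, Sox6, Maf and Tbx15 are highest in the fast muscles, and Pitx1 is at 0 in all male diaphragm libraries.

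Prox1, at chr1:190118035-190170827, followed the order soleus, diaphragm, gastrocnemius, tibialis anterior in all 12 groups of sex and age. In males at 6 months it ranged from 24.8 to 44 CPM in soleus (median 32.7), 15.9 to 20.4 in diaphragm (median 17.3), 2.56 to 3.76 in gastrocnemius (median 3.19) and 1.57 to 2.15 in tibialis anterior (median 1.9). In females the ranges were 29 to 51.8 CPM in soleus (median 45.6), 16 to 28.8 in diaphragm (median 20.9), 4.12 to 5.6 in gastrocnemius (median 4.77) and 1.52 to 2.04 in tibialis anterior (median 1.83). The libraries of the 4 muscles did not overlap in either sex. The log2 difference of soleus minus tibialis anterior was 4.15 ± 0.11 (SE, n = 8 per muscle) in males (adjusted p = 2.41e-24) and 4.61 ± 0.13 in females (adjusted p = 1.87e-23). Diaphragm minus gastrocnemius was 2.53 ± 0.1 in males (adjusted p = 6.54e-20) and 2.2 ± 0.11 in females (adjusted p = 3.67e-17). The fast muscles differed too, with gastrocnemius 0.76 ± 0.1 above tibialis anterior on the log2 scale in males (adjusted p = 1.55e-06) and 1.42 ± 0.12 in females (adjusted p = 7.6e-11). Because Prox1 also marks lymphatic endothelium, the summed lymphatic markers Lyve1, Flt4, Pdpn and Ccl21a were set beside it. In males at 6 months their median was 186 CPM in diaphragm, 30.4 in soleus, 24.6 in gastrocnemius and 19.8 in tibialis anterior. This order puts diaphragm before soleus, the reverse of that of Prox1. Soleus, gastrocnemius and tibialis anterior came in the same order as for Prox1. The part of lymphatic vessels in the Prox1 level was not tested.

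Eya4, at chr10:23102962-23350838, showed 2 levels: a high one in gastrocnemius and tibialis anterior and a low one in soleus and diaphragm. In males it ranged from 54.6 to 71.3 CPM in gastrocnemius (median 66.2) and 51.2 to 77.2 in tibialis anterior (median 59.6), against 7.24 to 11.4 in soleus (median 9.2) and 7.37 to 13 in diaphragm (median 8.1). In females the medians were 44.2, 41.8, 8.44 and 7.92 CPM in the same order. No fast-muscle library overlapped a soleus or diaphragm library of its sex. Gastrocnemius exceeded soleus by 2.83 ± 0.12 on the log2 scale in males (7.11-fold, adjusted p = 1.37e-19) and by 2.34 ± 0.14 in females (5.06-fold, adjusted p = 2.13e-15). Diaphragm and soleus did not differ beyond their spread, with a log2 difference of 0.02 in males (95% interval -0.19 to 0.23) and 0.04 in females (-0.22 to 0.3), and neither did gastrocnemius and tibialis anterior (0.09, -0.12 to 0.3, and 0.07, -0.18 to 0.33). By plain totals diaphragm was above soleus, by 0.37 in males (adjusted p = 0.00118) and 0.36 in females (adjusted p = 0.00393), and gastrocnemius was above tibialis anterior in males (0.31, adjusted p = 0.0169).

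Sox6, at chr7:115470872-116040776, had the same pair of levels. In males it ranged from 301 to 347 CPM in tibialis anterior (median 325) and 289 to 333 in gastrocnemius (median 305), against 80.1 to 113 in soleus (median 95) and 73.6 to 108 in diaphragm (median 88.1). In females the medians were 332, 290, 69.8 and 79 CPM in that order. Fast-muscle libraries did not overlap those of soleus or diaphragm. Soleus was 3.32 times lower than tibialis anterior in males (log2 -1.73 ± 0.07, adjusted p = 3.6e-19) and 4.59 times lower in females (log2 -2.2 ± 0.09, adjusted p = 6.85e-19). In females diaphragm was slightly above soleus (log2 0.21 ± 0.09, adjusted p = 0.0438), which was lost without the 6 libraries that stand apart (0.15, adjusted p = 0.117). In males that difference was -0.09 ± 0.07, with an adjusted p of 0.274, and on plain total counts 0.28 (adjusted p = 0.00012).

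Maf, at chr8:115703253-115706894, followed the order gastrocnemius, tibialis anterior, diaphragm, soleus in all 12 groups of sex and age. In males at 6 months it ranged from 171 to 225 CPM in gastrocnemius (median 220), 150 to 191 in tibialis anterior (median 160), 43.5 to 108 in diaphragm (median 54.4) and 19.1 to 39.1 in soleus (median 25.7). In females the medians were 218, 162, 57.3 and 27.9 CPM in the same order. Gastrocnemius was 7.89 times higher than soleus in males (log2 2.98 ± 0.15, adjusted p = 3.82e-17) and 7.05 times higher in females (log2 2.82 ± 0.14, adjusted p = 4.77e-17). Maf also separated diaphragm from soleus, by 1.24 ± 0.14 in males (adjusted p = 1.08e-08), without overlap, and by 1.06 ± 0.13 in females (adjusted p = 7.19e-08), with overlap. Between the fast muscles, gastrocnemius was above tibialis anterior in females (0.46 ± 0.13, adjusted p = 0.0143), and in males the difference was 0.35 ± 0.14 (adjusted p = 0.102), and 0.56 on plain total counts (adjusted p = 0.000751).

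Tbx15, at chr3:99240348-99354260 on the plus strand, followed the order tibialis anterior, gastrocnemius, soleus, diaphragm in all 12 groups. In males it ranged from 324 to 365 CPM in tibialis anterior (median 353), 262 to 286 in gastrocnemius (median 271), 113 to 157 in soleus (median 145) and 80.2 to 123 in diaphragm (median 86.3). In females the medians were 260, 207, 111 and 71.8 CPM in the same order. The male libraries of tibialis anterior, gastrocnemius and soleus did not overlap, and those of soleus and diaphragm did. Soleus was 2.48 times below tibialis anterior in males (log2 -1.31 ± 0.07, adjusted p = 6.04e-16) and 2.33 times in females (log2 -1.22 ± 0.17, adjusted p = 2.06e-07). Diaphragm was the lowest muscle, 3.67 times below tibialis anterior in males (adjusted p = 7.01e-20) and 3.46 times in females (adjusted p = 4.72e-11).

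Six4, at chr12:73099609-73114031, was the most even of the 8 genes among muscles by TMM, and Eya1 was on plain total counts. In males it ranged from 59 to 81 CPM in soleus (median 74.1), 47.4 to 74.8 in tibialis anterior (median 67.5), 46.8 to 69 in gastrocnemius (median 57.4) and 49 to 58.4 in diaphragm (median 52.1). In females the medians were 66.7, 67.8, 61.7 and 42.2 CPM in the same order. Most of these groups overlapped. The largest difference that passed the test was between diaphragm and tibialis anterior in females (log2 -0.61 ± 0.12, adjusted p = 5.2e-05), and on plain total counts it turned to 0.3 (adjusted p = 0.000862). TMM thus put Six4 lowest in diaphragm in all 12 groups of sex and age, whereas on plain total counts its mean log2 level over all ages was 5.9 in diaphragm, above 5.68 in gastrocnemius and 5.64 in tibialis anterior. Soleus was highest in mean level on both scales, with 6.05 by TMM and 6.12 on plain totals.

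Eya1, at chr1:14168953-14311035, was higher in the fast muscles by TMM, and this too depended on the scaling. In males it ranged from 45.2 to 60.5 CPM in tibialis anterior (median 47.4), 41.7 to 49.2 in gastrocnemius (median 45.5), 25.1 to 36.4 in soleus (median 30.1) and 22.2 to 43.4 in diaphragm (median 31). In females the medians were 44.9, 37.5, 27.4 and 20.2 CPM in the same order. Soleus did not overlap tibialis anterior in either sex and was lower by 0.7 ± 0.1 on the log2 scale in males (adjusted p = 4.23e-07) and by 0.67 ± 0.12 in females (adjusted p = 1.2e-05). On plain total counts these differences were -0.26 (adjusted p = 0.0216) and -0.1 (adjusted p = 0.427). Diaphragm minus gastrocnemius was -0.46 ± 0.1 in males by TMM (adjusted p = 0.000137) and 0.13 on plain totals (adjusted p = 0.243). Between TMM and plain totals the median log2 difference of all genes moved by 0.6 in males and 0.84 in females between diaphragm and gastrocnemius, and by 0.44 and 0.59 between soleus and tibialis anterior. The directions given above for Prox1, Maf and Tbx15, and those of Eya4 and Sox6 between the fast muscles and soleus or diaphragm, were the same on both scales.

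Pitx1, at chr13:55825044-55836190, separated the limb from the trunk. In males at 6 months all 8 diaphragm libraries had 0 counts. The limb medians were 0.249 CPM in gastrocnemius (0.0896 to 0.364), 0.337 in soleus (0.126 to 0.892) and 0.367 in tibialis anterior (0.105 to 0.715), from 138, 271 and 165 counts in all. Against an assumed floor of 3 counts over the male diaphragm group, Pitx1 was 46.8-fold higher in gastrocnemius, 82.8-fold in soleus and 70.9-fold in tibialis anterior. In females 1 of 8 diaphragm libraries held 3 counts, and the ratios were 80.8 (95% exact interval 27.3 to 395) for gastrocnemius, 120 (40.6 to 583) for soleus and 64.3 (21.6 to 316) for tibialis anterior. The intervals allow for counting error alone. Over all ages 41 of 48 male and 46 of 50 female diaphragm libraries had no count, with 27 and 9 counts in all. The male ratios to diaphragm over all ages were lower than the floor values at 6 months. They were 34.7 (23.7 to 52.9) for gastrocnemius, 55.0 (37.6 to 83.7) for soleus and 40.0 (27.3 to 61.1) for tibialis anterior. The female ratios were 116, 208 and 99.5 in the same order. The 3 limb muscles overlapped, with log2 differences of 0.26 to 0.87 in size and adjusted p of 0.0505 to 0.655. With plain totals soleus passed above gastrocnemius in both sexes (log2 gastrocnemius minus soleus -1.11 in males and -1.0 in females) and above tibialis anterior in females (1.47, adjusted p = 0.00167).

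To see whether the differences between muscles followed fibre type in general, 6 gene lists were read beside the 8 genes, against 46.2% of all genes in males and 57.1% in females that passed between soleus and tibialis anterior. The slow and fast fibre lists passed in every member, and the other lists are read against these shares. In soleus against tibialis anterior, all 12 slow fibre genes were higher in both sexes (median log2 6.53 in males and 6.42 in females, against 0.04 and 0.07 over all genes), among them Myl2 (9.76 ± 0.23 in males, adjusted p = 1.41e-25), the slow myosin light chain. Of 15 fast fibre genes 14 were lower in both sexes (median -1.88 and -2.57), with Myh2, the myosin of the most oxidative fast fibres, higher (3.53 ± 0.2 in males, adjusted p = 4.9e-16). Of 7 other genes of the Six4, Eya and Dach network, 2 were higher and 1 lower in males and 3 and 2 in females. Dach2, a corepressor of the network, was 1.88 ± 0.18 higher in soleus in males (adjusted p = 1.86e-10), and Six2 was 1.53 ± 0.34 lower (log2 -1.53, adjusted p = 0.000392). Of 19 other fibre type regulators 7 were higher and 4 lower in males, and 7 and 6 in females, led by Esrrg, a nuclear receptor of oxidative metabolism (2.28 ± 0.1 in males, adjusted p = 1.23e-18). Of 11 tested relatives of Sox6, Prox1, Pitx1, Maf and Tbx15, 4 were higher and 2 lower in males, and 6 and 1 in females. Mafa, another large Maf factor, was lower in soleus (-2.6 ± 0.29 in males, adjusted p = 4.05e-09), as Maf was. Of 5 limb identity genes 2 were higher and 1 lower in males, and 3 and 1 in females, with Tbx4, a hindlimb T-box factor, at 1 ± 0.21 in males (adjusted p = 0.000195).

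To identify changes with age, each older age was compared with 6 months within a muscle and sex. At 27 months 7 of 31 tested values passed in males, 1 up and 6 down, and 9 of 31 in females, 3 up and 6 down. Sox6 and Maf fell in gastrocnemius of both sexes, and Eya4 rose in tibialis anterior of both. Tbx15 rose and Maf fell in female soleus, and Prox1 fell in male tibialis anterior. Most of these changes were under 1.5-fold, except that of Eya1 in male diaphragm, those of Tbx15 and Maf in female soleus and that of Pitx1 in female tibialis anterior.

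In the fits of diaphragm alone Pitx1 did not pass the filter on low counts and was not tested. Among males the genes that passed at 27 months were 3 of 7 in diaphragm (8.65% of all genes tested), 2 of 8 in gastrocnemius (23.3%), 2 in tibialis anterior (17.8%) and 0 in soleus (2.85%). Among females they were 5 in tibialis anterior (21.9%), 2 in gastrocnemius (29.3%), 2 in soleus (18.8%) and 0 in diaphragm (1.61%). In male soleus edgeR gave 2 values with an unadjusted p below 0.05, DESeq2 called 1 and limma-voom 0. In female diaphragm edgeR gave 1 such value, and neither DESeq2 nor limma-voom called any (0). Over the 5 older ages together 13 of 155 values passed in males and 29 of 155 in females. Of all genes the pooled male shares were 4.17% (diaphragm), 10.4% (gastrocnemius), 1.86% (soleus) and 8.45% (tibialis anterior), and the female ones 1.34%, 14.9%, 14.1% and 10.8%. On plain total counts 20 passed in males, 10 up and 10 down, where TMM gave 1 up and 12 down, and 45 in females, 15 up and 30 down, where TMM gave 11 and 18. Female diaphragm then had 3 falls at 27 months, of Eya4 (-0.44, adjusted p = 0.0423), Six4 (-0.31, adjusted p = 0.022) and Sox6 (-0.31, adjusted p = 0.00292). At 12 months 0 of 62 values passed by edgeR, limma-voom or DESeq2, and 8 had an unadjusted p below 0.05, while 0.36% of all genes passed in the 8 comparisons together.

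**Figure D2:**
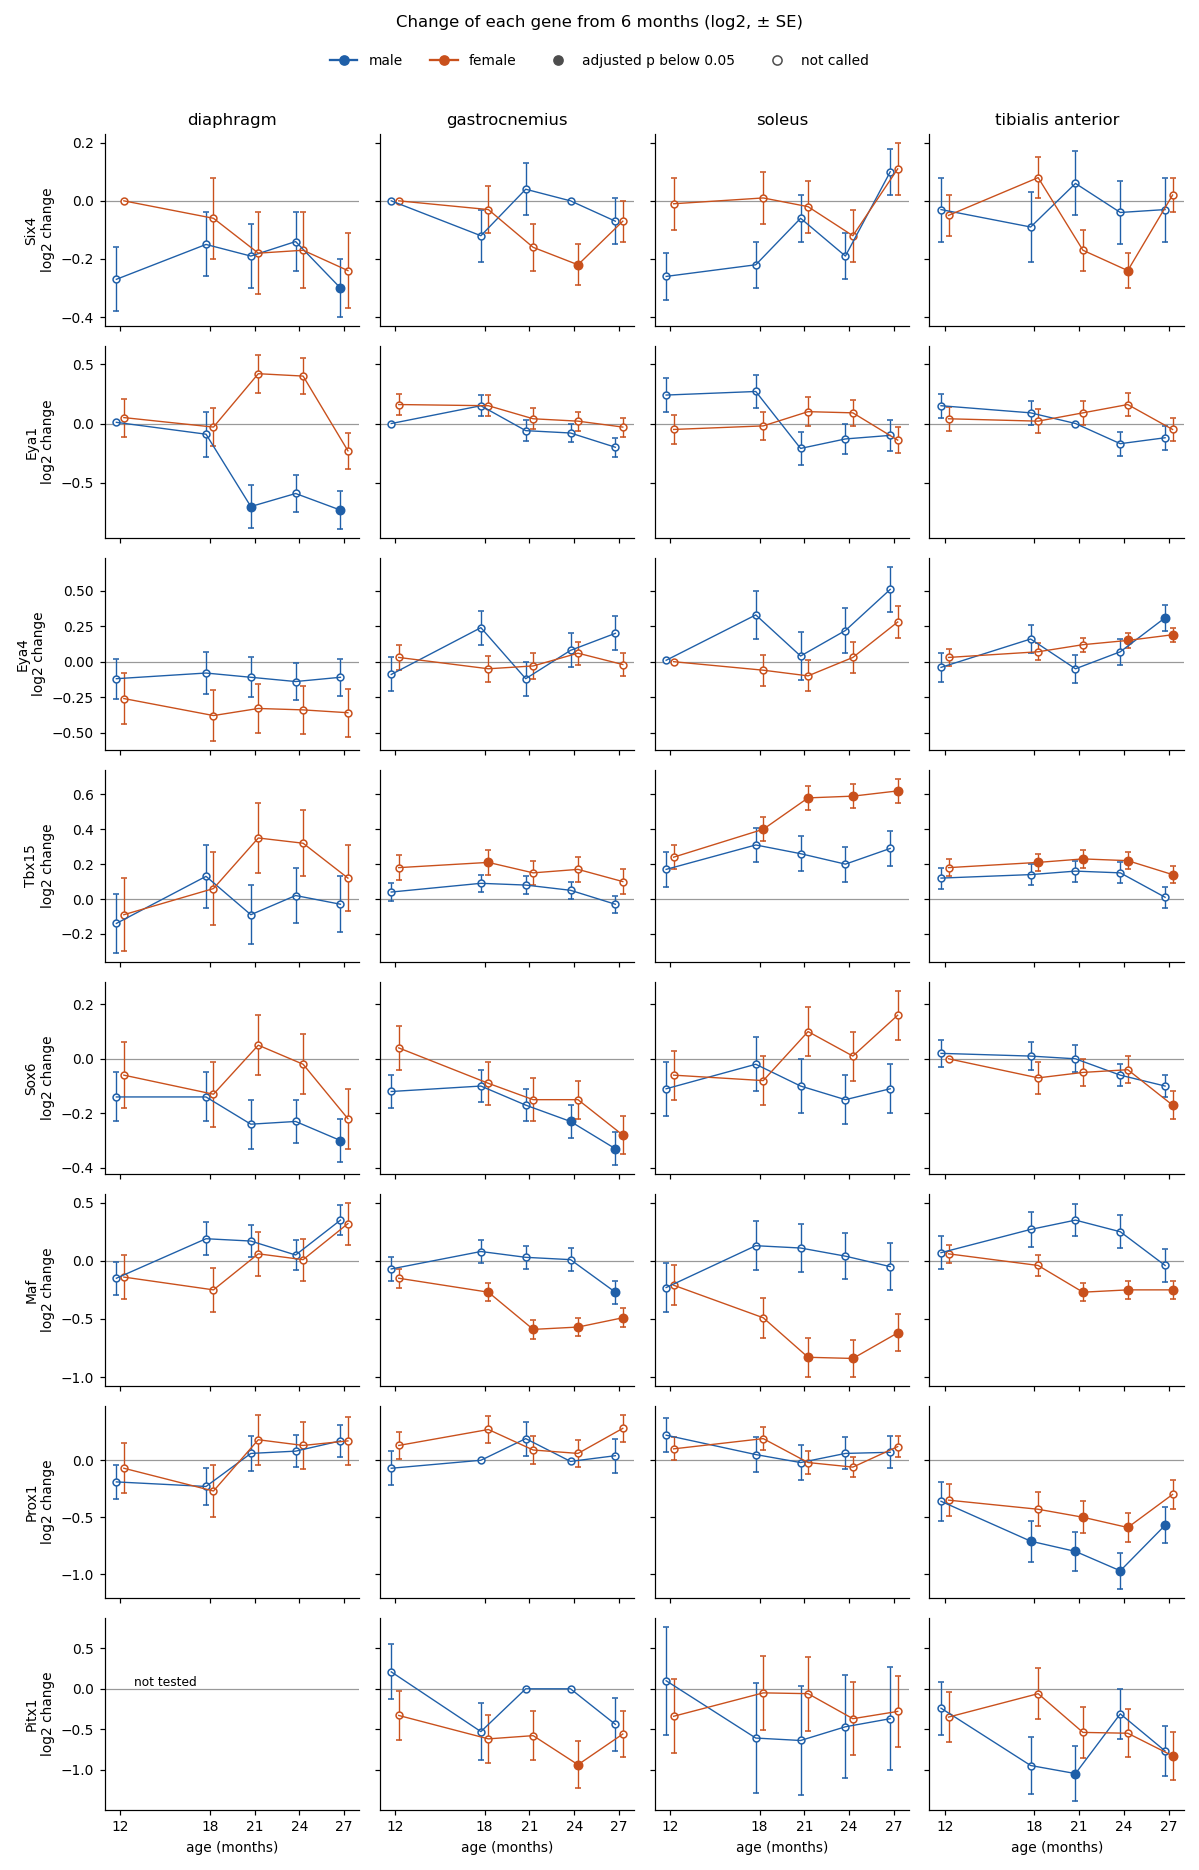
Log2 change of each gene from 6 months (vertical axis, own scale for each gene) at 12 to 27 months (horizontal axis), in 4 muscles, blue for males and orange for females. Bars are ± SE and are left out where the unadjusted p is above 0.95, and filled points have an adjusted p below 0.05. Filled points lie above 0 for Tbx15 in female soleus (0.62 at 27 months) and below 0 for Maf in female gastrocnemius (-0.49) and soleus (-0.62).

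Tbx15 in female soleus had the largest rise that passed. Its level ran from 97.1 to 126 CPM at 6 months (median 111), 124 to 144 at 12 months (median 130), 112 to 176 at 18 months (median 149), 150 to 186 at 21 months (median 165), 139 to 207 at 24 months (median 167) and 146 to 194 at 27 months (median 170). The libraries at 21, 24 and 27 months did not overlap those at 6 months. The log2 change was 0.4 ± 0.07 at 18 months (adjusted p = 0.000379), 0.58 ± 0.07 at 21 months (adjusted p = 6.09e-08), 0.59 ± 0.07 at 24 months (adjusted p = 2.82e-08) and 0.62 ± 0.07 at 27 months (adjusted p = 3.89e-09), so most of it was in place at 21 months. In male soleus Tbx15 went from 113 to 157 CPM (median 145) to 131 to 194 (median 177), a log2 change of 0.29 ± 0.1 that did not pass (adjusted p = 0.1) and was 0.31 on plain total counts (adjusted p = 0.00237). In female tibialis anterior Tbx15 rose by 0.21 ± 0.05 at 18 months, 0.23 ± 0.05 at 21 months, 0.22 ± 0.05 at 24 months (adjusted p = 0.000877) and 0.14 ± 0.05 at 27 months (adjusted p = 0.0264), from 238 to 307 CPM at 6 months (median 260) to 240 to 325 at 27 months (median 284), with overlap. In female gastrocnemius its rise passed at 18 months, without overlap (0.19 to 0.23 with each replicate number left out in turn). At 27 months the change there was 0.1 (adjusted p = 0.272), and 0.21 on plain total counts (adjusted p = 0.000246).

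Maf fell with age in the limb muscles of females. In gastrocnemius it ran from 167 to 268 CPM at 6 months (median 218), 133 to 155 at 21 months (median 145), 130 to 166 at 24 months (median 146) and 98.8 to 176 at 27 months (median 159). The libraries at 21 and 24 months did not overlap those at 6 months, and the log2 changes were -0.59 ± 0.08 (adjusted p = 1.07e-06), -0.57 ± 0.08 (adjusted p = 5.04e-07) and -0.49 ± 0.08 at 27 months (adjusted p = 3.7e-06). In female soleus it went from 22.8 to 48.9 CPM (median 27.9) to 12.8 to 26.2 at 21 months (median 16.8), 12.1 to 24.4 at 24 months (median 17) and 14.5 to 24.4 at 27 months (median 20.1), with overlap. There the changes were -0.83 ± 0.17 (adjusted p = 0.000237), -0.84 ± 0.16 (adjusted p = 0.000118) and -0.62 ± 0.16 (adjusted p = 0.00349). Maf is also made by macrophages, whose summed markers in female soleus had a median of 81.4 CPM at 6 months (58.9 to 94.8), 57.2 at 21 months, 58.1 at 24 months and 53.8 at 27 months (37.8 to 110), so they were lower where Maf was lower, and their part in the change was not tested. In female gastrocnemius those markers had a median of 52.3 CPM at 6 months and 54.5 at 27 months. In male gastrocnemius Maf went from 171 to 225 CPM (median 220) to 100 to 227 at 27 months (median 172), a change of -0.27 ± 0.1 (adjusted p = 0.0383) that did not pass with median-of-ratios size factors (-0.25, adjusted p = 0.0528). In female tibialis anterior it fell from 133 to 182 CPM (median 162) to 106 to 159 (median 132), by -0.25 ± 0.08 on the log2 scale (adjusted p = 0.018), and by -0.19 on plain total counts (adjusted p = 0.072). Diaphragm went the other way without passing the test. In male diaphragm Maf ran from 43.5 to 108 CPM at 6 months (median 54.4) and 65.1 to 106 at 27 months (median 72.1), with 10 of 10 older libraries above the 6-month median and a change of 0.35 ± 0.13 (adjusted p = 0.071), which passed on plain total counts (0.46, adjusted p = 0.0286). In female diaphragm it ran from 47.5 to 89.1 CPM (median 57.3) and 55.2 to 150 (median 70.7), with 9 of 10 above and a change of 0.32 ± 0.18 (adjusted p = 0.438).

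Sox6 fell in gastrocnemius. In males it went from 289 to 333 CPM at 6 months (median 305) to 221 to 285 at 24 months (median 267) and 215 to 273 at 27 months (median 249), and neither of the older groups overlapped that at 6 months. The log2 change was -0.23 ± 0.06 at 24 months (adjusted p = 0.00346) and -0.33 ± 0.06 at 27 months (adjusted p = 9.35e-06). In females it went from 244 to 324 CPM (median 290) to 128 to 272 at 27 months (median 242), with overlap, a change of -0.28 ± 0.07 (adjusted p = 0.00291). With the slow fibre level as a covariate the female change was -0.23, with an adjusted p of 0.0619. Among the age changes of all the genes that passed, 33 kept their call with this covariate, 9 lost it and 0 changed sign. The female Sox6 change in gastrocnemius is among the 9. Sox6 also fell in female tibialis anterior, by -0.17 ± 0.05 (adjusted p = 0.013). Its level there went from 287 to 359 CPM (median 332) to 236 to 338 at 27 months (median 290). On plain total counts the change was -0.11 (adjusted p = 0.0924).

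**Figure D3:**
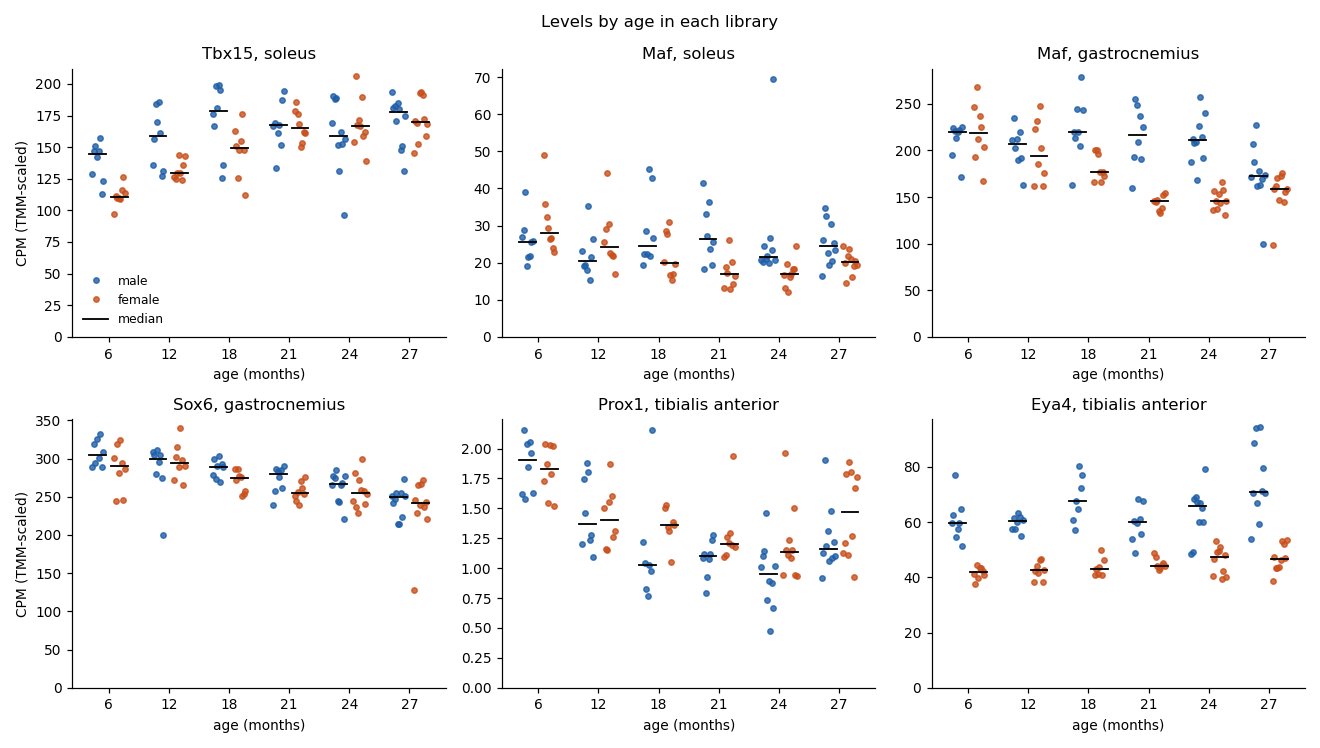
Level of Tbx15 and Maf in soleus, Maf and Sox6 in gastrocnemius, and Prox1 and Eya4 in tibialis anterior (TMM-scaled CPM, linear axes from 0) against age in months. Each point is 1 library, blue for males and orange for females, with the median as a bar. Female Tbx15 in soleus goes from a median of 111 CPM at 6 months to 170 at 27 months, and Prox1 in male tibialis anterior from 1.9 to 1.16 CPM.

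Prox1 fell in tibialis anterior, the muscle in which it was lowest. In males it ran from 1.57 to 2.15 CPM at 6 months (median 1.9), 0.764 to 2.16 at 18 months (median 1.03), 0.792 to 1.28 at 21 months (median 1.1), 0.475 to 1.46 at 24 months (median 0.951) and 0.918 to 1.9 at 27 months (median 1.16). The groups at 21 and 24 months did not overlap that at 6 months. The log2 changes were -0.71 at 18 months (adjusted p = 0.0214), -0.8 at 21 months (adjusted p = 0.0021), -0.97 at 24 months (adjusted p = 3.97e-05) and -0.57 ± 0.16 at 27 months (adjusted p = 0.00925). In females it went from 1.52 to 2.04 CPM (median 1.83) to 1.09 to 1.94 at 21 months (median 1.2), 0.931 to 1.96 at 24 months (median 1.13) and 0.924 to 1.89 at 27 months (median 1.47), with overlap. There the changes passed at 21 months (-0.5, adjusted p = 0.0161) and 24 months (-0.59, adjusted p = 0.00139), and at 27 months the value was -0.3 ± 0.13 (adjusted p = 0.104). The summed slow fibre markers of this muscle had medians of 5.19 CPM at 6 months, 6.21 at 21, 4.97 at 24 and 5.87 at 27 months in males, and 21.6, 34.4, 19.4 and 46.2 in females. Myoz2, a single gene of the slow fibre list, fell in females, by -0.88 ± 0.24 at 21 months (adjusted p = 0.0113) and -1.28 ± 0.23 at 24 months (adjusted p = 5.23e-05). At 27 months more genes of that list rose than fell in this muscle of females. With the slow fibre level of each library as a covariate, the 6 changes of Prox1 that passed still did, at -0.99 to -0.51. In this muscle, however, an association with that level passed for 0 of 16 values. The covariate could therefore hardly have moved these estimates, and the part of slow fibre content was not tested. In the other 3 muscles the changes of Prox1 at 27 months lay between 0.04 and 0.28 and did not pass. The value in female gastrocnemius (0.28, adjusted p = 0.063) was 0.39 on plain total counts and passed there (adjusted p = 0.00764).

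Eya4 rose in tibialis anterior at 27 months. In males it went from 51.2 to 77.2 CPM (median 59.6) to 53.8 to 94.3 (median 70.9), a log2 change of 0.31 ± 0.09 (adjusted p = 0.0123). In females it went from 37.6 to 44.4 CPM (median 41.8) to 38.7 to 53.3 (median 46.6), a change of 0.19 ± 0.05 (adjusted p = 0.00544). Both groups overlapped those at 6 months. Eya1 fell in male diaphragm, from 22.2 to 43.4 CPM (median 31) to 13.9 to 25.9 at 21 months (median 19.9) and 7.51 to 29.9 at 27 months (median 19.6). The changes were -0.7 at 21 months (adjusted p = 0.0117), lost without the 6 libraries that stand apart (-0.54, adjusted p = 0.0868), and -0.73 ± 0.16 at 27 months (adjusted p = 0.00496). In the same muscle and age Sox6 fell by -0.3 ± 0.08 (adjusted p = 0.018) and Six4 by -0.3 ± 0.1 (adjusted p = 0.0454). The sample numbers fall into runs, whose meaning the labels do not give, and in diaphragm these runs are spread unevenly over the ages. With the run of sample numbers as a term, these 3 changes were -0.47 (adjusted p = 0.328), -0.21 (adjusted p = 0.419) and -0.24 (adjusted p = 0.47). In females Eya1 in diaphragm went from a median of 20.2 CPM to 16.3 at 27 months (-0.23 ± 0.15, adjusted p = 0.518). Pitx1 fell in female tibialis anterior at 27 months, from 0.21 to 0.44 CPM (median 0.232) to 0.0601 to 0.288 (median 0.154), by -0.83 ± 0.3 (adjusted p = 0.0423), a call that 10 of 20 alternatives ended.

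As a line on the logarithm of age, 4 of 31 values passed in males, all falling (16.0% of all genes tested), and 11 of 31 in females, 3 rising and 8 falling (23.7%). The slopes that passed in both sexes were those of Sox6 in gastrocnemius, at -0.13 per log2 unit of age in males (adjusted p = 3.87e-05) and -0.12 in females, and of Prox1 in tibialis anterior, at -0.36 in males (adjusted p = 6.12e-05) and -0.2 in females (adjusted p = 0.00512). The steepest in females were Maf in soleus (-0.37, adjusted p = 9.67e-06), Pitx1 in gastrocnemius (-0.34, adjusted p = 0.0139, and -0.13, adjusted p = 0.52, with the slow fibre covariate) and Tbx15 in soleus (0.3, adjusted p = 6.73e-12).

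To test whether muscles differ in their change, the change from 6 to 27 months was compared between each pair of muscles within a sex. In males 3 of 48 differences passed (1.67% of all genes in the 6 pairs together) and in females 9 of 48 (4.37%). Of all male genes 3.44% passed between diaphragm and gastrocnemius, 4.1% between diaphragm and soleus, 1.59% between diaphragm and tibialis anterior, 0.594% between gastrocnemius and soleus, 0.0% between gastrocnemius and tibialis anterior and 0.323% between soleus and tibialis anterior. For females the shares in the same order were 3.2%, 5.07%, 4.32%, 5.51%, 0.57% and 7.57%. Eya4 between diaphragm and soleus was the difference that passed in both sexes, with the change in diaphragm below that in soleus by 0.6 ± 0.19 in males (log2 -0.6, adjusted p = 0.0421) and 0.64 ± 0.16 in females (log2 -0.64, adjusted p = 0.00598). The male value was lost without the 6 libraries that stand apart (-0.54, adjusted p = 0.0687). Neither muscle's own Eya4 change passed: in soleus it was 0.51 ± 0.16 in males (adjusted p = 0.0653) and 0.28 ± 0.11 in females (adjusted p = 0.0522), and in diaphragm -0.11 ± 0.13 and -0.36 ± 0.17.

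In females the Maf change in diaphragm lay above that in soleus by 0.93 ± 0.19 (adjusted p = 0.000654) and above that in gastrocnemius by 0.82 ± 0.19 (adjusted p = 0.00334). The rise of Tbx15 in female soleus exceeded its change in gastrocnemius by 0.53 ± 0.16 (log2 of gastrocnemius minus soleus -0.53, adjusted p = 0.0288) and in tibialis anterior by 0.51 ± 0.16 (adjusted p = 0.0326). With plain totals these were -0.22 (adjusted p = 0.0612) and 0.23 (adjusted p = 0.0651), and the Maf difference from gastrocnemius was 0.55 (adjusted p = 0.072). The fall of Sox6 in female gastrocnemius differed from its change in soleus by -0.45 ± 0.12 (adjusted p = 0.0131), and by -0.14 on plain total counts (adjusted p = 0.205). In males the changes of Eya1 in diaphragm and soleus differed by -0.61 ± 0.18 (adjusted p = 0.0327), and those of Prox1 in diaphragm and tibialis anterior by 0.77 ± 0.21 (adjusted p = 0.0341). The latter was 0.6 without the 6 libraries that stand apart (adjusted p = 0.127) and 0.75 by limma-voom (adjusted p = 0.362). With the run of sample numbers as a term, 0 of the male differences passed.

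To compare sexes, male minus female differences were averaged over the 6 ages. Of 31 tested values 20 passed: 16 were higher in males and 4, all of Prox1, were lower. The genes that passed were 4 of 7 in diaphragm (18.9% of all genes tested), 6 of 8 in soleus (30.9%), 5 in gastrocnemius (58.3%) and 5 in tibialis anterior (47.8%). Eya4 in the fast muscles had the largest male excess, at 0.63 ± 0.04 in gastrocnemius (adjusted p = 7.95e-25) and 0.54 ± 0.03 in tibialis anterior (adjusted p = 1.38e-28). At 6 months the male and female libraries of Eya4 did not overlap in these muscles, with 54.6 to 71.3 against 36.6 to 53.5 CPM in gastrocnemius and 51.2 to 77.2 against 37.6 to 44.4 in tibialis anterior. Tbx15 was higher in males by 0.3 ± 0.02 in gastrocnemius (adjusted p = 8.38e-21), 0.35 ± 0.02 in tibialis anterior (adjusted p = 1.28e-25) and 0.1 in soleus (adjusted p = 0.0167). Sox6 differed in soleus, where males were higher by 0.35 ± 0.04 (adjusted p = 3.08e-13), with medians of 95 and 69.8 CPM at 6 months. Maf was higher in males by 0.33 ± 0.05 in tibialis anterior, 0.24 ± 0.04 in gastrocnemius and 0.25 ± 0.08 in soleus (adjusted p = 7.14e-09, 1.72e-08 and 0.0097), and Eya1 was higher in males in all 4 muscles, by 0.15 to 0.3. With plain totals the soleus values were 0.1 for Eya1 (adjusted p = 0.0958), 0.2 for Maf (adjusted p = 0.0743) and 0.04 for Tbx15 (adjusted p = 0.223).

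Prox1 was lower in males by -0.73 ± 0.06 on the log2 scale in gastrocnemius (adjusted p = 1.13e-21), -0.44 ± 0.05 in soleus (adjusted p = 4.05e-12), -0.35 ± 0.08 in diaphragm (adjusted p = 0.000512) and -0.17 ± 0.06 in tibialis anterior (adjusted p = 0.0214). Slow fibre genes were mostly lower in males in the limb muscles too, 12 of 12 in gastrocnemius and in soleus and 10 in tibialis anterior. In diaphragm only 4 of 12 were lower. The summed slow fibre markers had medians of 366 CPM in male and 955 in female gastrocnemius, and 7170 and 10900 in soleus. With the slow fibre level of each library as a covariate, 14 of 31 sex differences passed. Prox1 was then 0.01 in gastrocnemius (adjusted p = 0.924) and 0.05 in soleus (adjusted p = 0.654), Eya4 in soleus -0.1 (adjusted p = 0.491) and Maf in soleus -0.39 (adjusted p = 0.00496), each with the sign turned. Maf in gastrocnemius fell to 0.09 (adjusted p = 0.406) and Eya1 there to 0.08 (adjusted p = 0.388), while Eya1 in soleus (0.17, adjusted p = 0.178) and Prox1 in tibialis anterior (-0.13, adjusted p = 0.28) also did not pass. The sexes did not differ detectably in the change from 6 to 27 months: 0 of 31 values passed by edgeR, limma-voom or DESeq2 and 3 had an unadjusted p below 0.05, while the shares of all genes were 0.0% for diaphragm, 1.6% for gastrocnemius, 0.855% for soleus and 1.73% for tibialis anterior. The fall of Maf in female gastrocnemius and soleus and the rise of Tbx15 in female soleus are therefore not shown to differ from the male changes.

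**Figure D4:**
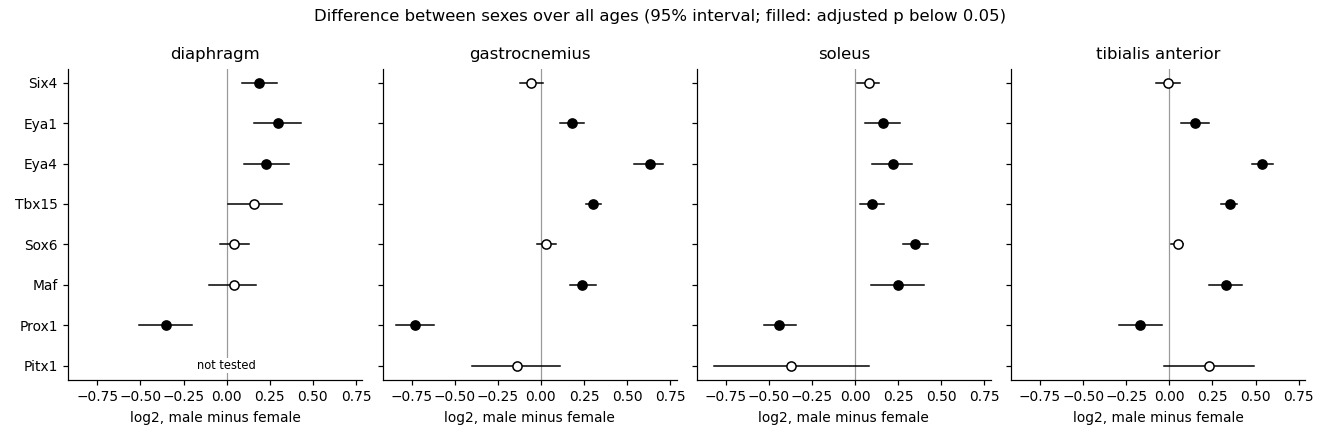
Log2 difference of male minus female averaged over 6 ages (horizontal axis) for each gene in 4 muscles, with 95% intervals as bars and filled points for an adjusted p below 0.05. Prox1 lies left of 0 in all 4 muscles (-0.73 in gastrocnemius) and Eya4 right of 0 (0.63 in gastrocnemius).

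To ask whether the genes go with the slow fibre content of a muscle among mice of the same sex and age, each was related to the mean log2 level of the 12 slow fibre genes, none of which is among the 8. In males 7 of 31 values passed and in females 7 of 31. The male shares of all genes were 46.1% for diaphragm, 11.0% for gastrocnemius, 9.27% for soleus and 0.0414% for tibialis anterior, and the female shares 51.8%, 0.611%, 7.36% and 0.0479%. Prox1 rose with the slow fibre level in gastrocnemius, by 0.74 ± 0.11 per log2 unit in males (adjusted p = 1.15e-05) and 0.83 ± 0.1 in females (adjusted p = 5.75e-08), and in soleus, by 0.87 ± 0.12 (adjusted p = 2.17e-06) and 0.96 ± 0.15 (adjusted p = 6.71e-05). In diaphragm its values were negative and did not pass, at -0.07 ± 0.11 in males (adjusted p = 0.643) and -0.31 ± 0.16 in females (adjusted p = 0.0944). Maf fell with the slow fibre level in soleus, by -1.02 ± 0.2 in males (adjusted p = 0.000559) and -1.43 ± 0.26 in females (adjusted p = 0.000391), and in diaphragm, by -0.42 (adjusted p = 5.46e-06) and -0.5 (adjusted p = 0.000432). The male diaphragm value of Maf was -0.24 without the 6 libraries that stand apart (adjusted p = 0.0953). Eya4 fell with it in male gastrocnemius (-0.42, adjusted p = 0.00795) and male soleus (-0.58, adjusted p = 0.0304), and Sox6 in female soleus (-0.58, adjusted p = 0.0264). With the replicate number as a block, which here joins different mice of different ages, these 3 did not pass (-0.36, -0.62 and -0.56, adjusted p = 0.0802, 0.129 and 0.107). Nor did Eya4 in male soleus by limma-voom (adjusted p = 0.0672), or Sox6 against Myh7 alone, the slow myosin, in place of the 12 genes (-0.32, adjusted p = 0.221). In male gastrocnemius Six4 rose with it (0.25, adjusted p = 0.0336). In female diaphragm Eya1 (0.29, adjusted p = 0.034) and Tbx15 (0.33, adjusted p = 0.0415) did so, in a muscle where 11 of 15 fast fibre genes rose with it as well. In tibialis anterior 0 of 16 values passed by edgeR, 0 had an unadjusted p below 0.05, and DESeq2 and limma-voom called 0 too.

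**Figure D5:**
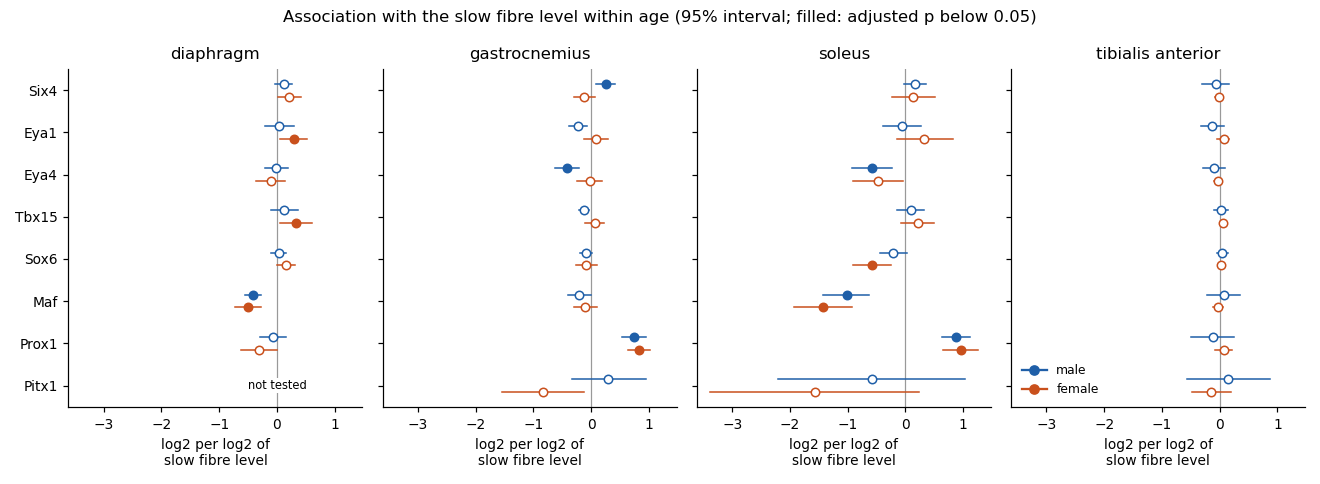
Change of each gene (log2, horizontal axis) per log2 unit of the mean level of 12 slow fibre genes, within age, in 4 muscles, blue for males and orange for females. Bars are 95% intervals and filled points have an adjusted p below 0.05. Prox1 lies right of 0 in gastrocnemius and soleus of both sexes (0.74 to 0.96) and Maf left of 0 in soleus (-1.02 and -1.43).

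Fibre genes were read beside the 8 genes at 27 months as well. In gastrocnemius, where 23.3% of all genes passed in males and 29.3% in females, 11 of 15 fast fibre genes fell in males and 12 in females (median log2 -0.23 and -0.19, against 0.0 and 0.02 over all genes), and 6 of 12 slow fibre genes rose in males and 11 in females (median 0.44 and 0.56). Actn3, the fast fibre actinin, fell by -0.45 ± 0.06 in females (adjusted p = 2.62e-08), and Tnni1, the slow troponin I, rose by 0.96 ± 0.14 (adjusted p = 5.13e-07). In male gastrocnemius 2 of the 7 other genes of the Six4, Eya and Dach network rose and 2 fell, with Six2 at -0.54 ± 0.1 (adjusted p = 2.94e-05). Dach2 rose by 0.57 ± 0.12 in male tibialis anterior (adjusted p = 0.000441). Of the relatives, Mafa fell in male gastrocnemius (-0.56 ± 0.13, adjusted p = 0.00101), where Maf fell. In female tibialis anterior 4 of 12 slow fibre genes rose and 2 fell, Myoz2 among the latter (-1.21 ± 0.23, adjusted p = 7.47e-05), and of 15 fast fibre genes 1 rose and 1, Myh2, fell (-1.56 ± 0.22, adjusted p = 6.08e-07). There, where 21.9% of all genes passed, 8 of 19 other fibre type regulators fell and 1 rose, with Esrrg at -0.48 ± 0.08 (adjusted p = 7.04e-06), and in female soleus 7 rose, among them Mef2a, a MADS-box factor of muscle genes (0.22 ± 0.04, adjusted p = 7.68e-05). Of the limb identity genes, Tbx4 fell by -0.56 ± 0.14 in female soleus (adjusted p = 0.00321).

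Across the 48 group means of muscle, sex and age, Pearson correlation was used to name the genes whose pattern was most like that of each of the 8. The values are a description, since they are set mainly by differences between the 4 muscles. Eya4 was closest to Eif4g3 (r = 0.99), Rbfox1 and Myl1 (0.989 each), Sox6 to Pgk1, Sar1b and Osbpl6 (0.993 each), and Maf to Mstn (0.984), Stxbp4 (0.982) and Mybpc2 (0.98). Prox1 was closest to Nnt (0.988), Sgol2a (0.987) and Idh2 (0.984), Tbx15 to Ube2q2 (0.99), Cux1 (0.989) and Gars (0.988), and Pitx1 to Sim2 (0.979), Hoxc9 (0.974) and Hoxa10 (0.973). Eya1 reached 0.955 with Dirc2 and 0.954 with Timm23 and Klhdc2, and Six4 had 0.924 with Cisd2 and 0.913 with Rab18. Among the 8 genes, Eya4 and Sox6 were the most alike (0.976), Prox1 ran against Sox6 (-0.944), Eya4 (-0.909) and Maf (-0.888), and Six4 and Maf had a correlation of -0.025.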

How the data were processed

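For every library the authors deposited raw counts of paired reads per gene, from ArrayStudio with a gene model of their own on mm10; the sources used here do not give its version. Of 25091 rows with 24458 symbols, the row with the largest total was kept for a repeated symbol, which left out 0.0335% of counts. No 2 libraries were identical (0 found). Each sex (muscles, change by muscle), muscle (sexes) or muscle and sex (ages) was fitted on its own with edgeR 4.0.16: filterByExpr, TMM, quasi-likelihood test, Benjamini-Hochberg adjustment over all genes tested, called at an adjusted p below 0.05. SE is the log2 change over the root of F, and 95% intervals take normal quantiles of it. The study's limma, Bonferroni adjustment and 1.5-fold limit, and DESeq2 1.42.0, limma 3.58.1 (voom) and further settings, were alternatives. A fit without the 6 libraries that stand apart and fits on plain total counts were added after seeing the data. Log2 CPM used a prior count of 0.5. Scripts ran in R 4.3.3 and Python 3.11.15 and were tested on simulated data. All 8 genes are named; other genes were named by adjusted p within lists, or by likeness, and a few that these rules name are not reported here. The members and lists were chosen with earlier results of these data known.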

Additional observations from a re-analysis of the deposited data

Results flagged for a closer look

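For each gene and group of 4 to 10 libraries, the highest and the lowest library were set against the rest of the group by Dixon's test, and 48 of 372 groups (12.9%) held a library far from the others, where chance gives about 1 in 20. Only 2 of these 48 values came from the 6 diaphragm libraries that stand apart. Several came from the same library. Replicate 0 of female gastrocnemius at 27 months was lowest for 6 genes: Eya1 at 18.2 CPM (group median 37.6), Eya4 at 22.1 (44.5), Maf at 98.8 (159), Six4 at 37.2 (59.7), Sox6 at 128 (242) and Tbx15 at 134 (219). Replicate 2 of male diaphragm at 12 months was lowest for Prox1 at 12.1 CPM (15.6), Six4 at 30.8 (47.1), Sox6 at 56.8 (86) and Tbx15 at 44.9 (89.9). Replicate 7 of male gastrocnemius at 12 months was lowest for Eya4 at 34.1 CPM (66.9), Six4 at 47.4 (60.0) and Sox6 at 200 (300), and replicate 1 of female diaphragm at 24 months for Six4 at 21.0 CPM (40.9), Sox6 at 48.3 (85.3) and Tbx15 at 50.9 (94.4).

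The highest single deviation of Maf was in replicate 8 of male soleus at 24 months, at 69.4 CPM against a group median of 21.5. The same library was lowest for Sox6 at 61.3 CPM (90.5). Other Maf values far from their groups were 108 CPM in male diaphragm at 6 months, replicate 2 (54.4), and 100 CPM in male gastrocnemius at 27 months, replicate 8 (172). Tbx15 was at 29.7 CPM in male diaphragm at 27 months, replicate 8 (95), and at 307 CPM in female tibialis anterior at 6 months, replicate 6 (260). Sox6 was at 84.8 CPM in female soleus at 6 months, replicate 4 (69.8), and at 251 CPM in male tibialis anterior at 24 months, replicate 8 (309).

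Prox1 was high in female diaphragm at 18 months, replicate 4 (32.1 CPM, median 16.5), male diaphragm at 27 months, replicate 6 (33.2, 19.7), and female tibialis anterior at 21 months, replicate 6 (1.94, 1.2). It was low in female soleus at 27 months, replicate 0 (37.2 CPM, 47.6), female tibialis anterior at 18 months, replicate 4 (1.05, 1.36), and male gastrocnemius at 12 months, replicate 0 (2.15, 3.14). Eya1 was low in replicate 3 of female soleus at 21 months (20.9 CPM, 30.2) and in replicate 0 of female soleus (13.4, 25.2) and female tibialis anterior (28.4, 41.7) at 27 months. Eya4 was high in female diaphragm at 12 months, replicate 2 (10.2 CPM, 7.09), and low in female diaphragm at 18 months, replicate 3 (3.78, 6.94), and male gastrocnemius at 27 months, replicate 4 (45.0, 75.7).

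Six4 was low in female gastrocnemius at 12 months, replicate 0 (50.3 CPM, 64.1), in male soleus at 12 months, replicate 7 (50.2, 61.8), at 27 months, replicate 0 (59.6, 76.2), and at 6 months, replicate 0 (59.0, 74.1), and in male tibialis anterior at 6 months, replicate 0 (47.4, 67.5). It was high in female soleus at 12 months, replicate 1 (91.0 CPM, 61.2). Pitx1 was low in female gastrocnemius at 24 months, replicate 1 (0.0648 CPM, 0.179), and at 27 months, replicate 8 (0.0181, 0.229), in male gastrocnemius at 24 months, replicate 3 (0.0512, 0.238), and in male tibialis anterior at 6 months, replicate 4 (0.105, 0.367). It had 0 counts in female soleus at 12 months, replicate 7 (median 0.397 CPM), and male soleus at 18 months, replicate 5 (0.244).

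By a test of the difference itself, 12 changes from 6 to 27 months differed between muscles. In males they were, on the log2 scale, Eya1 (-0.61) and Eya4 (-0.6) for diaphragm minus soleus and Prox1 (0.77) for diaphragm minus tibialis anterior. In females they were Maf (0.82) for diaphragm minus gastrocnemius, Eya4 (-0.64), Tbx15 (-0.5), Sox6 (-0.38) and Maf (0.93) for diaphragm minus soleus, Eya4 (-0.52) for diaphragm minus tibialis anterior, Tbx15 (-0.53) and Sox6 (-0.45) for gastrocnemius minus soleus, and Tbx15 (0.51) for soleus minus tibialis anterior. The female Sox6 value for diaphragm minus soleus did not pass under 6 of 8 alternatives (adjusted p 0.0503 to 0.0758). The female Tbx15 value for that pair did not by limma-voom (0.157), with the replicate block (0.106) or without the 6 libraries that stand apart (0.123), and the female Eya4 value for diaphragm minus tibialis anterior did not by limma-voom (0.0916) or with the replicate block (0.0768).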

How the results depend on the processing

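The 175 values that passed were recomputed under the alternatives that apply to each, 2700 values in all. Of these 2506 kept direction and call, 185 kept direction and lost the call, and 9 changed sign. On plain total counts, which leave out the TMM factors, 5 changed sign: male Eya1 for diaphragm minus gastrocnemius (0.13) and minus tibialis anterior (0.19), male Six4 for diaphragm minus tibialis anterior (0.52) and female Six4 for diaphragm minus gastrocnemius (0.28) and minus tibialis anterior (0.3). With the slow fibre covariate 4 sex differences did: Eya4 (-0.1), Maf (-0.39) and Prox1 (0.05) in soleus and Prox1 in gastrocnemius (0.01). The cause was not tested.

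With Bonferroni adjustment the counts of values that passed fell at 27 months to 2 in females and 1 in males, over all older ages to 7 and 2, for the trend to 3 and 2, for the muscle by age differences to 1 and 0, for the slow fibre level to 3 and 3, and between sexes to 10. With Benjamini-Hochberg adjustment and a fold above 1.5 they were 3 and 1 at 27 months, 9 and 6 over all older ages, 3 for the muscle by age differences in females and 2 between sexes. Plain total counts gave 45 in females and 20 in males over all older ages and 5 for the male muscle by age differences, which had 6 by DESeq2 and 0 with the run of sample numbers. Without the 6 libraries that stand apart 11 male values passed for the slow fibre level, against 7 with them. The causes of these shifts were not tested. Leaving out each replicate number in turn gave 5 to 9 in females and 4 to 8 in males at 27 months, 19 to 30 and 8 to 16 over all older ages, 35 to 38 and 35 to 36 between muscles, and 8 to 12 and 4 to 6 for the trend. Calls that ended without 1 replicate number alone were Eya1 in male diaphragm at 21 months (without replicate 3, adjusted p = 0.107), Eya4 in male tibialis anterior at 27 months (replicate 3, 0.0816), Maf between the female fast muscles (replicate 3, 0.051), Sox6 in male diaphragm at 27 months (replicate 5, 0.0605), Tbx15 in female tibialis anterior at 18 months (replicate 4, 0.0712), Pitx1 in female gastrocnemius at 24 months (replicate 1, 0.0719) and its trend there (replicate 7, 0.0541). Those that ended without any of several numbers at 27 months were Maf in male gastrocnemius (highest adjusted p 0.113), Six4 in male diaphragm (0.114), and in female tibialis anterior Maf (0.0697), Sox6 (0.0694), Tbx15 (0.0902) and Pitx1 (0.16), as were Prox1 in male tibialis anterior at 18 months (0.136) and Sox6 between female diaphragm and soleus (0.166).

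Replicate numbers were shared across muscles. Among limb muscles of 1 sex and age 205 of 306 pairs had correlated deviations above 0.1, with diaphragm 92 of 293, and 127 and 38 were best matched by their own number, among 306 and 293. Limb muscles thus tended to deviate together by number, a hint from the data of shared animals, and the median correlation was over 0.1 in 30 of 36 sets of 2 limb muscles. In 3 of the 36 every pair was over 0.1, and in 0 of 36 sets with diaphragm, so the numbers were not used to pair the libraries throughout. With the replicate block the counts were 10 in females and 8 in males at 27 months, 29 and 14 over all older ages, 37 and 37 between muscles, 10 and 6 for the trend, 7 and 6 for the muscle by age differences (9 and 3 without the block), 7 and 5 for the slow fibre level, 21 between sexes and 0 for the change with age between sexes. Only the fits that span muscles can bear on shared animals. In fits of 1 muscle the block joins different mice.

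Pitx1 rests on few counts, with 138 in the 8 male gastrocnemius libraries at 6 months, so small changes of it were not detectable at this depth.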
